A study of Mus musculus with 8 samples.

Results

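The genes described here are 5 ligands of the bone morphogenetic protein (BMP) family, Bmp2, Bmp3, Bmp4, Bmp6 and Bmp7, and 4 secreted antagonists, Grem1, Sostdc1, Chrd and Fst. They were found by their symbols among 37583 gene rows, and all 9 passed the filter on low counts that left 15228 genes for testing. The family was chosen from the differences of Grem1, Bmp3 and Sostdc1 between the 2 genotypes in these same libraries. The fold changes of all 9 between the genotypes are therefore given as a description, without a test.

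RNA sequencing was done on 8 whole kidney samples, 1 library each. The labels do not say whether each sample came from a mouse of its own. In the 4 libraries labelled knockout, both Tfap2b alleles are floxed (TFAP2Bfl/fl) and the mice carry b-actinCreERT2, a Cre recombinase that tamoxifen activates and that a beta-actin promoter drives in most cell types. The other 4 libraries are labelled WT and come from control littermates, whose alleles are not spelled out. The sources used here give no tamoxifen dose, time after induction, age or sex. Libraries held 13435113 to 17930347 gene counts. Tfap2b, which encodes the transcription factor AP-2 beta, stood at 237 to 266.5 CPM (counts scaled to a common library size, with TMM factors) in knockout 1 to 4, above the 94.3 to 110.5 CPM of wildtype 1 to 4. Counts over the whole gene do not check the deletion, so directions below are those of the labels. The 7 adrenal cortex markers (2 tested, 0 passed, 0 at an unadjusted p under 0.05) summed to 243 CPM in knockout 4 against 7.52 to 10.6 CPM in the other 7 libraries. Kidney markers were present throughout: 3 of 7 proximal tubule markers fell, with sums of 14445 to 17167 CPM (wildtype) and 8892 to 13102 CPM (knockout). Of the 6 principal cell markers tested 5 rose, with overlapping sums of 717 to 1198 and 1065 to 1835 CPM. The other, Aqp4, was lower with the knockout label without overlap but did not pass (log2 fold change -1.39 ± 0.40, SE, edgeR adjusted p = 0.067). Of 7 macrophage markers 6 rose, with sums of 153 to 182 and 223 to 316 CPM.

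BMPs are secreted dimers of the TGF-beta superfamily that bind paired type I and type II serine/threonine kinase receptors. The receptors phosphorylate SMAD1, SMAD5 and SMAD9, which enter the nucleus with SMAD4 and induce genes such as the Id family. Antagonists work outside the cell. Gremlin 1 (Grem1) and chordin (Chrd) bind BMPs and keep them from their receptors, follistatin (Fst) mainly binds activins, and sclerostin domain-containing 1 (Sostdc1, also called USAG-1) binds BMPs and Wnt co-receptors. In the kidney, Bmp7 is needed for nephron formation, gremlin 1 is needed for outgrowth of the ureteric bud, and Sostdc1 is known as a distal tubule antagonist of BMP7.

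Of the 9 genes, 4 had a promoter in the RefSeq table (build GRCm38.p6), Grem1, Chrd, Bmp4 and Bmp6. The sequences of Grem1, the gene with the widest difference between the groups, and of Chrd, the 1 of these 4 with a match to the letters searched, an AP-2 motif with a spacer of 3 bases, are shown as the 250 bases before the annotated start, 5′ to 3′ on the gene's strand. The letters searched were GCCNNNGGC, which read the same on both strands, and matches are in capitals. AP-2 factors also bind forms with other spacers, which were not searched. The Grem1 stretch lies at chr2:113758649-113758898 (minus strand) and has 72% G and C, and that of Chrd lies at chr16:20732877-20733126 (plus strand) and has 78%.
Grem1: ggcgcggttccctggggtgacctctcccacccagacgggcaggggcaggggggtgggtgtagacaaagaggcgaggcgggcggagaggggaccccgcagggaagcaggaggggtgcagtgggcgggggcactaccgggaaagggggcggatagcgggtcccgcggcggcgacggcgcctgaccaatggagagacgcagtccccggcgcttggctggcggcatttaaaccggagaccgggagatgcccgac
Chrd: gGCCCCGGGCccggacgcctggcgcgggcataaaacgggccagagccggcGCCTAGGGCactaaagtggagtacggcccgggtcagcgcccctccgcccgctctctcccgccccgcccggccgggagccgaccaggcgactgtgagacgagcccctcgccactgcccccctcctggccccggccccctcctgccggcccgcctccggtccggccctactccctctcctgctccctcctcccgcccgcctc
The Chrd stretch holds 2 matches, beginning 249 and 200 bases before the start, and the stretches of Grem1, Bmp4 and Bmp6 hold none. Of all 32851 promoter stretches in the table, 13.7% hold at least 1 match. A match is a description of the letters, not evidence of binding.

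The antagonists differed in opposite directions. Grem1 (ENSMUSG00000074934) was barely counted in the libraries labelled wildtype and differed most among the 9 genes. It stood at 1.28, 0.731, 0.407 and 1.27 CPM in wildtype 1 to 4 (17, 10, 7 and 21 counts) and at 5.61, 31.4, 37.4 and 43.8 CPM in knockout 1 to 4 (96, 537, 668 and 607 counts). The groups did not overlap, and knockout 1 lay far below the other 3 libraries labelled knockout. The mean level was 0.923 ± 0.430 CPM with the wildtype label and 29.6 ± 16.7 CPM with the knockout label (SD, n = 4 each), a 32.1-fold difference (log2 fold change 5.005 ± 0.77, SE). Without knockout 1 the log2 fold change was 5.35, and without knockout 4, the library with adrenal transcripts, 4.75. With a circadian clock score in the model (clock output minus clock activator genes, mean log2 CPM) it was 2.79 ± 0.69 (SE), and Grem1 was no longer past the threshold. Except in knockout 1, that score was lower with the knockout label than in any library labelled wildtype. Score and label can therefore hardly be told apart in that fit. In absolute log2 fold change Grem1 ranked 8 among the 15228 genes tested, a description only, since its difference was used in the choice.

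Sostdc1 (ENSMUSG00000036169, chr12:36314139-36318452, plus strand, GRCm38) was lower in the libraries labelled knockout. It stood at 162.6, 151.1, 142.5 and 158.7 CPM in wildtype 1 to 4 and at 65.4, 77.9, 65.6 and 64.99 CPM in knockout 1 to 4. All 4 libraries labelled knockout were below the lowest labelled wildtype, and the spread within each group was small. Its mean was 154 ± 8.86 CPM with the wildtype label and 68.5 ± 6.30 CPM with the knockout label (SD, n = 4 each), a 2.24-fold lower level (log2 fold change -1.17 ± 0.079, SE). In bulk tissue, fewer cells of a type and less RNA per cell cannot be told apart. Beside Sostdc1, 6 of 8 distal convoluted tubule markers fell and 0 rose (6 at an unadjusted p under 0.05), with a summed level of 3594 to 3977 CPM with the wildtype label and 1883 to 2039 CPM with the knockout label. All 7 thick ascending limb markers fell, with sums of 12743 to 15535 and 6584 to 7618 CPM. None of the markers of either list was at 0 in all libraries, and their part in the Sostdc1 difference was not tested.

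Follistatin transcripts were higher in the libraries labelled knockout, with overlap. Fst (ENSMUSG00000021765, chr13:114452290-114458951, minus strand) stood at 16.6, 12.6, 11.9 and 20.1 CPM in wildtype 1 to 4 and at 29.5, 28.9, 18.4 and 40.0 CPM in knockout 1 to 4. Knockout 3 lay below wildtype 4, and the log2 fold change was 0.93 ± 0.25 (SE). Chordin transcripts (ENSMUSG00000006958) were at 8.44, 8.18, 10.5 and 11.5 CPM in wildtype 1 to 4 and at 9.82, 9.13, 8.39 and 7.94 CPM in knockout 1 to 4 (log2 fold change -0.13 ± 0.14, SE). The groups overlapped for Chrd, and its log2 fold change was 0.12 with the clock score in the model. Its exons share 239 bases with those of Thpo on the opposite strand, and since the counts are named as not stranded, reads there cannot be assigned. The test gave Thpo -0.19 ± 0.18 on the log2 scale (edgeR adjusted p = 0.539).

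Among the ligands, Bmp3 was higher, Bmp7 was lower and the other 3 overlapped between the groups. Bmp3 (ENSMUSG00000029335, chr5:98854415-98884396, plus strand), an unusual family member that opposes osteogenic BMPs, stood at 3.01, 2.27, 3.26 and 3.15 CPM in wildtype 1 to 4 and at 11.5, 15.4, 12.75 and 13.8 CPM in knockout 1 to 4. The 4 libraries of each label lay close together, the groups did not overlap, and the difference was 4.54-fold (log2 fold change 2.18 ± 0.15, SE). Bmp7 (ENSMUSG00000008999, chr2:172868012-172940321, minus strand), studied as a protective factor in kidney injury, stood at 54.2, 58.5, 62.5 and 63.7 CPM in wildtype 1 to 4 and at 43.7, 41.3, 44.1 and 46.0 CPM in knockout 1 to 4. The groups did not overlap, and the log2 fold change was -0.45 ± 0.072 (-0.35 with library totals as the only scaling, which moved the median of all genes by 0.11).

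Bmp4 (ENSMUSG00000021835), known for its expression in stroma around the developing ureter, was lower on average but varied among the libraries labelled wildtype. Its levels were 69.1, 48.95, 78.9 and 48.95 CPM in wildtype 1 to 4 and 36.9, 37.1, 52.1 and 41.3 CPM in knockout 1 to 4. Knockout 3 exceeded wildtype 2 and wildtype 4, and the log2 fold change was -0.56 ± 0.18 (SE). Bmp6 (ENSMUSG00000039004), known for induction of hepcidin in the liver, had 46.8 to 58.0 CPM with the wildtype label and 42.6 to 57.6 CPM with the knockout label, a log2 fold change of -0.08 ± 0.10 (0.02 with library totals and 0.07 with the clock score). Bmp2 (ENSMUSG00000027358), a widely expressed ligand, was low throughout, with 2.11 to 3.80 and 2.96 to 3.69 CPM (log2 fold change 0.27 ± 0.23). Exons of Bmp4 overlap Gm15217 by 89 bases and those of Bmp6 overlap Txndc5 by 224 bases, both on the opposite strand. Neither partner passed the test (edgeR adjusted p = 0.421 and 0.757). Gm15217 had a log2 fold change of -0.65 ± 0.46 (SE), in the direction of Bmp4, and Txndc5 had -0.045 ± 0.080.

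**Figure D1:**
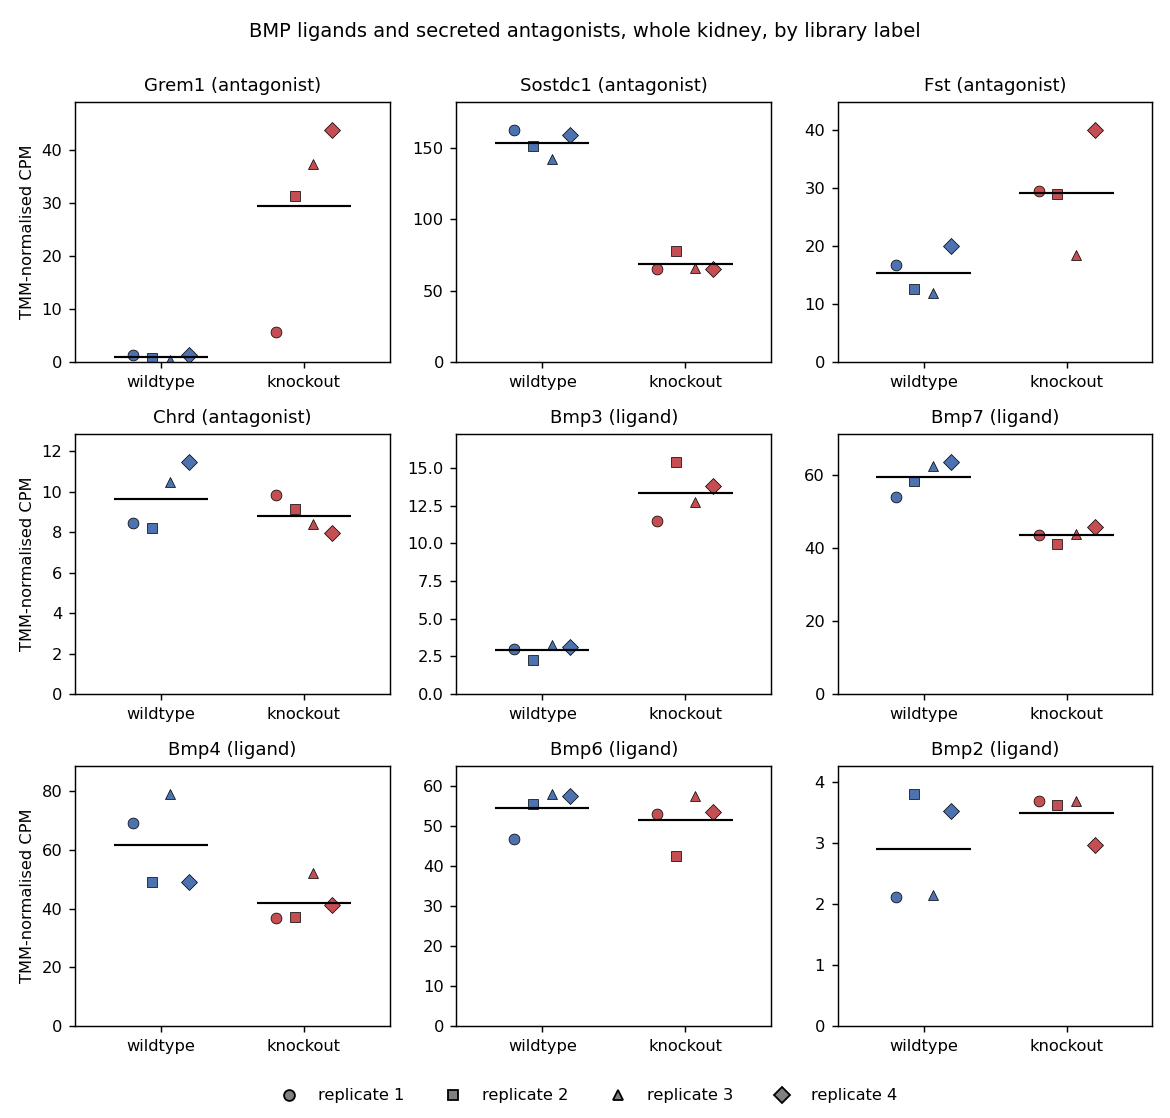
TMM-normalised CPM (y axis, linear, from 0, own scale per gene) of the 9 genes in the 4 libraries labelled wildtype and the 4 labelled knockout; marker shapes give the replicate number and bars the group mean. The groups are apart for Grem1, Sostdc1, Bmp3 and Bmp7, and knockout 1 (circle) is the low Grem1 library at 5.61 CPM.

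By the fit over all genes, 3 of the 9 lay past an adjusted p of 0.05 upward (Grem1, Fst and Bmp3) and 2 downward (Sostdc1 and Bmp7), against 6.23% upward, 5.70% downward and 11.9% in all over the genes tested. Over all genes 949 rose and 868 fell (1658 and 508 with library totals), and 4133 of the 15228 tested had an unadjusted p under 0.05. The groups did not overlap for 4 of the 9 genes, against 18.5% of all genes tested. The choice of the family used this contrast, so nothing is read from these counts. The median log2 fold change of the 9 was -0.08, and that of all genes tested was 0.00. Fst was no longer past the threshold without knockout 1, 2 or 4, without wildtype 1, 2 or 3, without knockout 1 and 4 together, with no filter or with the clock score, and Bmp4 was past it with DESeq2, with a replicate block and without knockout 3. With the clock score in the model, Bmp3 and Sostdc1 were past the threshold and Grem1, Fst and Bmp7 (log2 fold change -0.35) were not. The family was chosen from Grem1, Bmp3 and Sostdc1 in this contrast, so nothing is read from these calls either. The clock score was 0.91 in knockout 1, the low Grem1 library, -0.82 to -1.57 in knockout 2 to 4 and 0.11 to 2.91 in wildtype 1 to 4. Since the score largely followed the label, the fit with it can hardly tell them apart. The part of time of day in these differences was not tested.

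Levels of different genes were compared per kilobase of merged exons (GENCODE M21, build GRCm38, while the counts were made on mm9). In the libraries labelled wildtype, Sostdc1 led with 86.3 ± 4.98 CPM per kilobase (SD, n = 4), 3.16 times the level of Bmp4 at 27.3 ± 6.68. Bmp7 at 14.9 ± 1.07 and Bmp6 at 14.0 ± 1.35 CPM per kilobase followed, and their ranges overlapped. Fst stood at 3.34 ± 0.83, Chrd at 1.54 ± 0.254, Bmp2 at 0.814 ± 0.250, Bmp3 at 0.395 ± 0.0608 and Grem1 at 0.223 ± 0.104 CPM per kilobase. Apart from Bmp7 with Bmp6 and Bmp3 with Grem1, neighbours in this order did not overlap in their library values.

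In the libraries labelled knockout the order from the top was Sostdc1, Bmp4, Bmp6, Bmp7, Grem1, Fst, Bmp3, Chrd and Bmp2. Grem1 stood at 7.13 ± 4.04 CPM per kilobase (SD, n = 4), from 1.35 in knockout 1 to 10.6 in knockout 4, and its range overlapped those of Bmp7 and Fst. Sostdc1, at 38.4 ± 3.54 CPM per kilobase, was still 2.07 times Bmp4. Bmp3, at 1.80 ± 0.225, overlapped Chrd at 1.41 ± 0.132.

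Summed over the 4 antagonists, the level was 91.4 ± 5.75 CPM per kilobase with the wildtype label and 53.3 ± 5.91 with the knockout label (SD, n = 4 each). Sostdc1 made up 93.2% to 95.2% of the sum in the first and 63.97% to 79.7% in the second. The share of Grem1 went from 0.116% to 0.321% in the libraries labelled wildtype to 2.94%, 12.8%, 17.6% and 18.5% in knockout 1 to 4, and that of Fst from 3.07% to 4.58% to 7.83% to 15.3%. The 5 ligands summed to 57.4 ± 6.498 and 45.5 ± 4.66 CPM per kilobase, with knockout 3 (51.7) close to wildtype 2 (51.99). Bmp4, Bmp6 and Bmp7 made up most of the ligand sum in every library, and Bmp3 went from 0.589% to 0.792% of it to 3.34% to 5.10%. The ratio of summed ligands to summed antagonists was 0.632 ± 0.106 and 0.863 ± 0.142, with overlap between the groups. These are transcript sums and say nothing of protein or of binding strength.

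**Figure D2:**
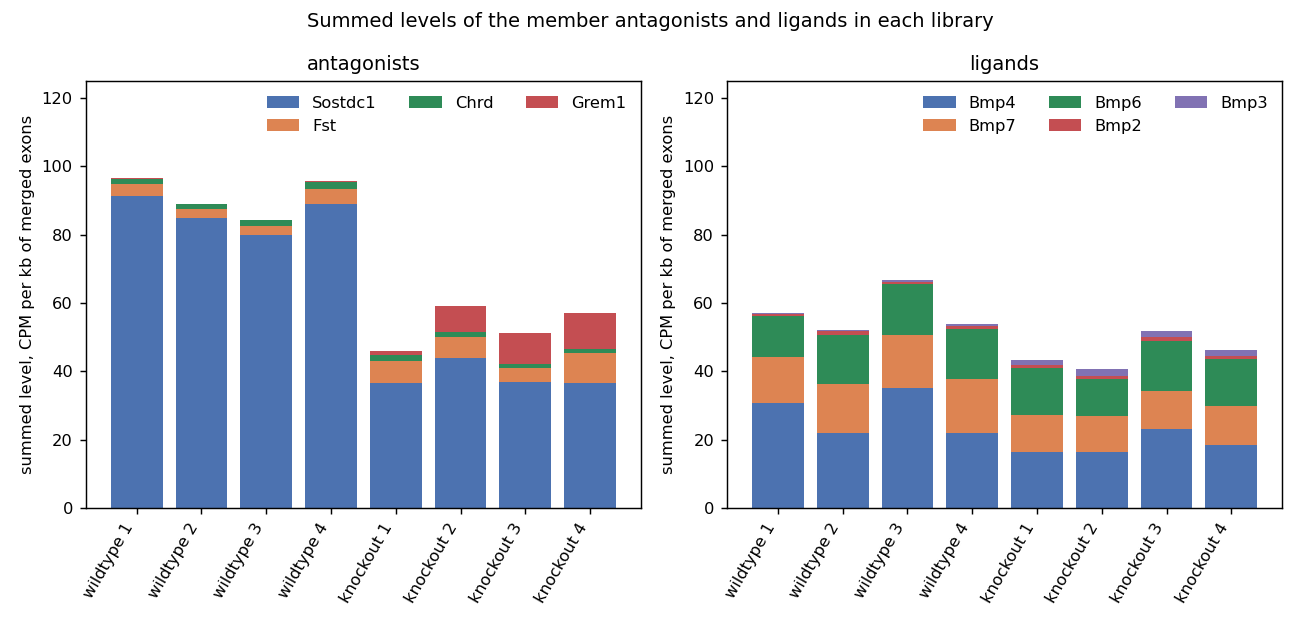
Stacked bars of the summed level (y axis, CPM per kilobase of merged exons, from 0) of the 4 antagonists and the 5 ligands in each of the 8 libraries. The Sostdc1 part is more than 80 in the wildtype libraries and below 44 in the knockout libraries, and the Grem1 part is visible in knockout 2, 3 and 4.

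The other genes of the pathway were taken from lists of 70 genes, of which 52 were tested. Of these, 6 rose, 8 fell and 38 did not pass (edgeR quasi-likelihood test, Benjamini-Hochberg adjusted p under 0.05). Over all genes tested, 6.23% rose and 5.70% fell. The median log2 fold change of the 52 was -0.05. An unadjusted p under 0.05 was found for 26 of the 52, against 4133 of all 15228 genes tested. With the clock score in the model, 3 rose and 3 fell, among them Nog, Smoc2, Nbl1, Id1 and Smad9. Not past the threshold in that fit were Gdf11, Id4, Fstl1, Crim1, Bmpr1b, Kdr, Id2 and Smad6 (edgeR adjusted p = 0.0526 to 0.442).

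Of 18 other secreted antagonists and modulators, 13 were tested, 4 rose and 2 fell, against 6.23% and 5.70% of all genes tested. Nog, which encodes the BMP antagonist noggin, fell, with 49, 22, 41 and 54 counts in wildtype 1 to 4 and 6, 8, 1 and 1 counts in knockout 1 to 4 (log2 fold change -3.46 ± 0.49, SE, edgeR adjusted p = 0.00148). The Nog level was low in both groups, at most 3.69 CPM. Smoc2, a secreted matricellular protein, rose from 31.5 ± 4.07 to 70.6 ± 14.1 CPM (SD, n = 4 each; edgeR adjusted p = 0.000941), and Nbl1, a relative of gremlin, rose from 22.5 ± 0.740 to 32.95 ± 4.68 CPM (edgeR adjusted p = 0.007). Fstl1, a follistatin-like secreted protein, rose (log2 fold change 0.44 ± 0.12, edgeR adjusted p = 0.0389) and Crim1, a membrane protein that binds BMPs, fell (-0.28 ± 0.077, adjusted p = 0.0344). Each of these last 2 passed in 2 of the 8 fits that leave out 1 library, whereas Nog, Smoc2 and Nbl1 passed in all 8. Without knockout 1 and 4 together Nbl1 did not pass (adjusted p = 0.0643). Chrdl1, Twsg1 and Kcp, further extracellular BMP regulators, had log2 fold changes of -0.13, -0.03 and 0.06 (edgeR adjusted p = 0.688, 0.783 and 0.774).

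Of 9 other BMP and GDF ligands, 2 were tested and neither passed with edgeR, DESeq2 or voom. By edgeR, Bmp8a had an adjusted p of 0.143 and Gdf10 an adjusted p of 0.48, and 1 of the 2 had an unadjusted p under 0.05. Bmp5 was left out by the filter on low counts. It had 4, 6, 16 and 21 counts in wildtype 1 to 4 and 2, 0, 0 and 2 counts in knockout 1 to 4, without overlap after scaling, and it is named here after its values were seen. With no filter Bmp5 passed, as lower with the knockout label (edgeR adjusted p = 0.00426), and it also passed without knockout 1 and 4, where the remaining knockout libraries held 0 counts (adjusted p = 0.0316). Of 7 activin, inhibin and myostatin ligands, which include the main partners of follistatin, 3 were tested and 1 rose. That was Gdf11, from 5.60 ± 0.595 to 9.84 ± 0.685 CPM (SD, n = 4 each; edgeR adjusted p = 0.00231, and 0.0533 with the clock score). Inhba, the activin A subunit gene, was too low to be tested, at 0.423 and 0.575 CPM. Bmp1 and Tll1, which cleave chordin, did not pass (edgeR adjusted p = 0.27 and 0.954, 0 of 2 at an unadjusted p under 0.05, and 0 with DESeq2).

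Of 16 receptors and co-receptors, 15 were tested, 1 rose and 0 fell by edgeR (2 rose and 1 fell with DESeq2). An unadjusted p under 0.05 was found for 5 of the 15, against 4133 of all 15228 genes tested. Bmpr1b, a type I receptor, rose from 18.1 ± 2.02 to 25.4 ± 3.42 CPM (SD, n = 4 each; edgeR adjusted p = 0.0224), and it passed in 5 of the 8 fits that leave out 1 library. The other type I receptor of most BMPs, Bmpr1a, had -0.07 ± 0.063 on the log2 scale (SE, adjusted p = 0.531), and the type II receptor gene Bmpr2 had -0.25 ± 0.17 (adjusted p = 0.357). Of Lrp4, Lrp5 and Lrp6, receptors of the LRP family to which Sostdc1 binds, none passed (edgeR adjusted p = 0.564, 0.727 and 0.835). Kdr, the VEGF receptor that gremlin 1 can bind, fell by 0.65 ± 0.18 (SE) on the log2 scale (edgeR adjusted p = 0.0448) and passed in 1 of the 8 fits that leave out 1 library. It is also an endothelial marker, and 3 of the 7 endothelial markers fell, with overlapping sums of 424 to 576 and 363 to 438 CPM.

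Of 13 SMADs, SMURFs and early targets, 5 fell and 0 rose by edgeR (10 at an unadjusted p under 0.05; 7 fell and 0 rose with DESeq2, 3 fell and 1 rose with library totals, and 2 fell with the clock score). Over all genes tested, 5.70% fell by edgeR, and 4133 of 15228 had an unadjusted p under 0.05. Id1, a direct BMP target, went from 47.1 ± 15.6 to 16.4 ± 1.39 CPM (SD, n = 4 each; edgeR adjusted p = 0.00217), Id4 from 63.6 ± 12.3 to 37.1 ± 6.11 CPM (adjusted p = 0.00941, and 0.0869 with the clock score) and Smad9 from 5.15 ± 1.42 to 1.501 ± 0.452 CPM (adjusted p = 0.0018). Id2 and Smad6 also fell (edgeR adjusted p = 0.0354 and 0.0386) but passed in 2 and 1 of the 8 fits that leave out 1 library.

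**Figure D3:**
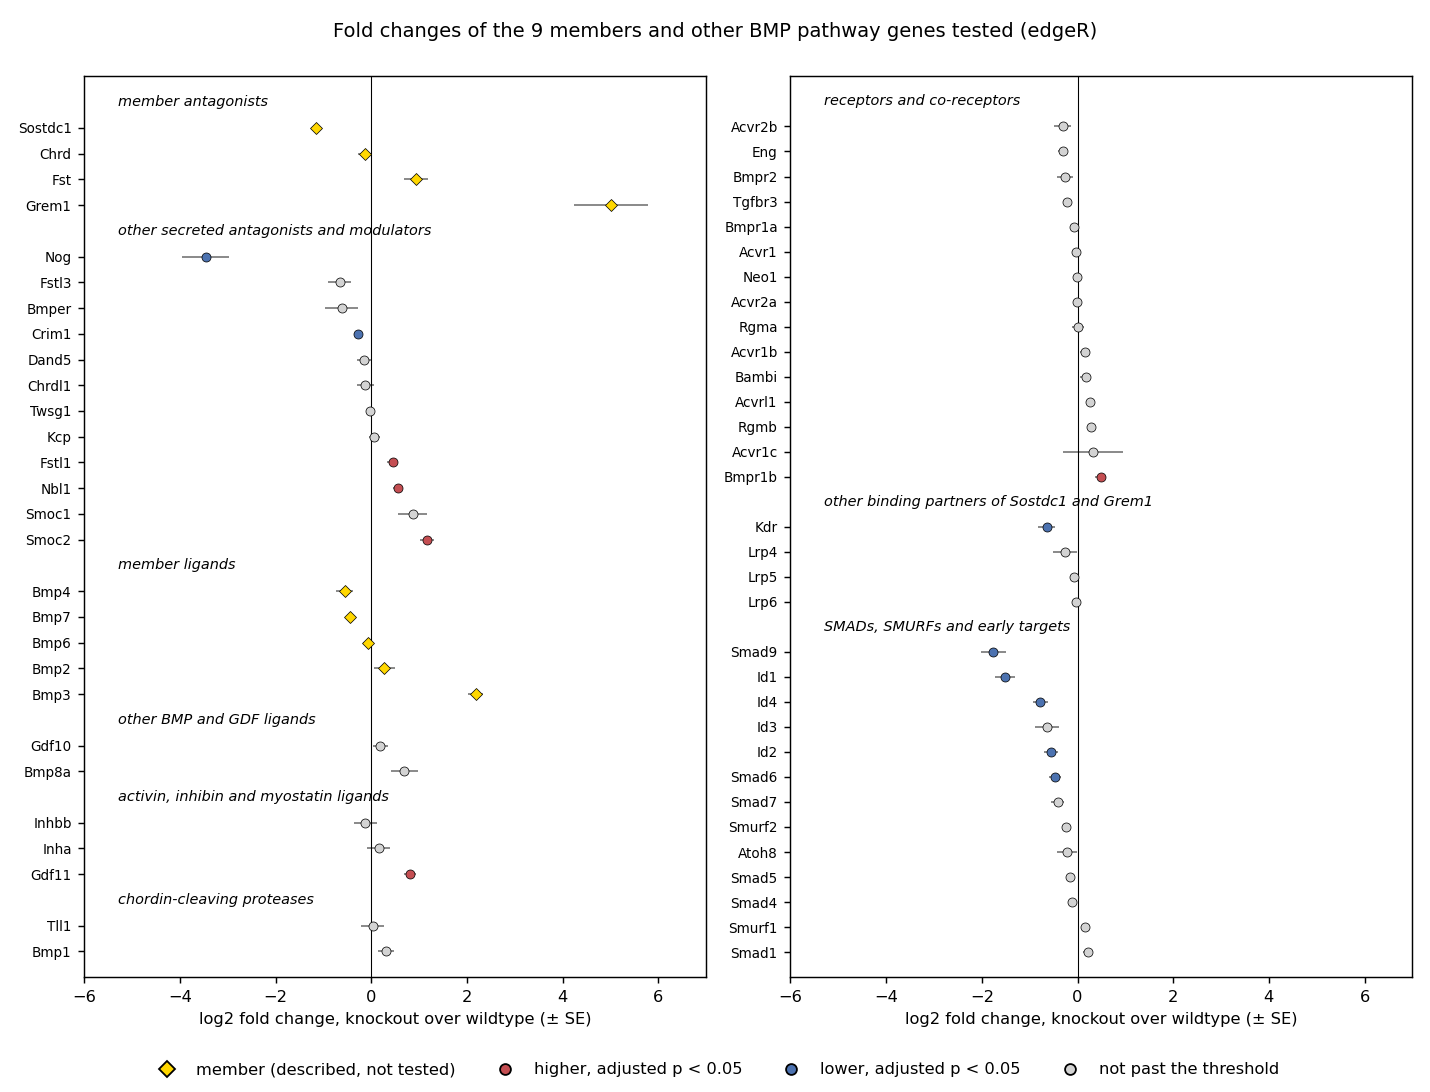
Log2 fold change, knockout over wildtype, with its standard error (x axis) for the 9 genes described here (diamonds, not tested) and for other pathway genes tested (circles, coloured by direction where the edgeR adjusted p is under 0.05), 4 libraries per group. Grem1 lies at 5.005, Nog at -3.46 and Id1 at -1.52, and Bmpr1b is the 1 receptor that passed.

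For each of the 5 genes past the threshold, the 3 genes of most alike pattern were sought among 12408 candidates, by the root mean square difference of log2 CPM over the 8 libraries after centring each gene on its mean. The libraries share the genotype contrast, so genes that differ by a like amount come out as alike. For Grem1 they included Cbr3, a carbonyl reductase gene, and Gdf15, a stress-induced ligand of the TGF-beta superfamily, with differences of 1.15 and 1.25 log2 units. Both had their lowest knockout value in knockout 1, where Cbr3 stood at 8.53 CPM and Gdf15 at 8.89 CPM, against 18.6 to 31.3 and 22.0 to 29.4 CPM in the other libraries labelled knockout. The search used knockout 1 too, so a low value there was part of what it sought. The log2 fold changes of Cbr3 and Gdf15 were 2.74 and 2.44, against 5.005 for Grem1. For Sostdc1 they were Robo3, Calb1 and Tmem72, with differences of 0.096 to 0.11 log2 units. Calb1 encodes the calcium-binding calbindin of the distal tubule and is one of the distal convoluted tubule markers. It stood at 1032 to 1294 CPM in the libraries labelled wildtype and at 463 to 533 CPM in those labelled knockout. A gene picked as alike to Sostdc1 is lower with the knockout label too, so this difference is not a separate result.

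For Bmp3 the most alike genes were Hmx2, Nrcam and Ret (0.25 to 0.26 log2 units), Hmx2 being a homeobox gene and Ret the GDNF receptor gene of the ureteric bud. Hmx2 stood at 11.6 to 14.9 CPM with the wildtype label and at 35.95 to 55.6 CPM with the knockout label. Beside Bmp3, 6 of 7 intercalated cell markers rose, with sums of 641 to 751 and 1222 to 1479 CPM and no marker at 0 in all libraries. For Fst they were Cpb2, Serpina3n and Krt19 (0.18 to 0.21 log2 units), and for Bmp7 Snx8, Mpdz and Dnm3 (0.050 to 0.063 log2 units). Beside Fst, 5 of 8 tubular injury markers rose, with sums of 2310 to 3140 and 3554 to 4321 CPM. The macrophage sum and the fibroblast and pericyte sum were also higher with the knockout label, without overlap, so these lists are not the only ones that differ. The part of these cells or states in the member differences was not tested.

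**Figure D4:**
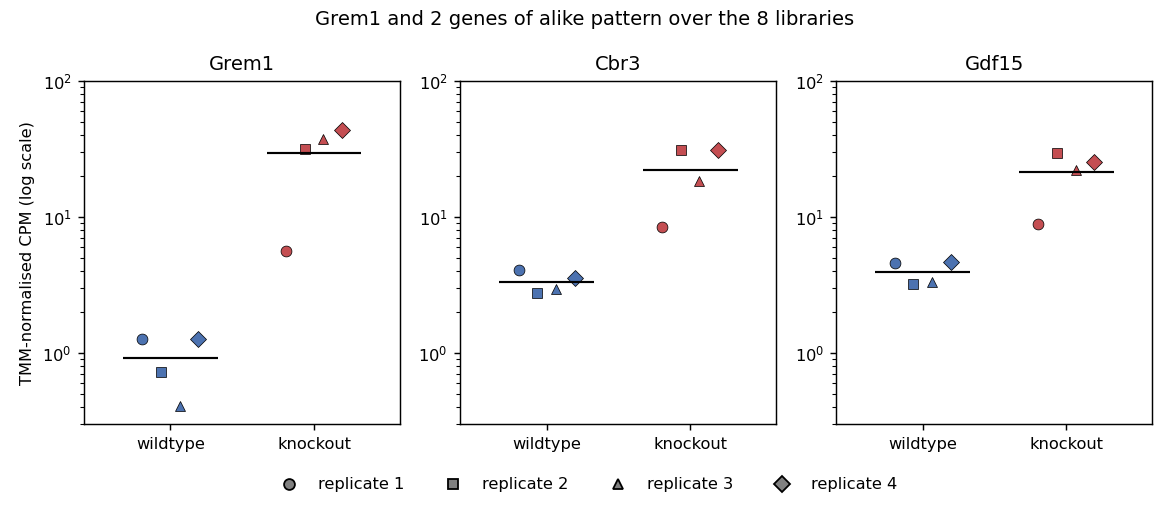
TMM-normalised CPM (y axis, log scale) of Grem1 and of 2 genes with an alike pattern, Cbr3 and Gdf15, in the 8 libraries; marker shapes give the replicate number and bars the group mean. Knockout 1 (circle) is the lowest library labelled knockout for all 3 genes, and Cbr3 and Gdf15 were picked for their likeness to Grem1 over these libraries.

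Grem1 lies on chromosome 2 between Fmn1 and Scg5 (GENCODE M21, GRCm38, 113746164 to 113758646, minus strand). Fmn1, a formin gene 29.4 kb away, was at -0.01 ± 0.14 on the log2 scale (SE, edgeR adjusted p = 0.981). Scg5, a neuroendocrine chaperone gene 17.7 kb away on the other side, stood at 42.8, 41.8, 18.9 and 45.6 CPM in wildtype 1 to 4 and at 47.9, 97.9, 82.3 and 141.4 CPM in knockout 1 to 4. Its groups did not overlap and knockout 1 was again the lowest labelled knockout, but it did not pass the test (log2 fold change 1.31 ± 0.40, adjusted p = 0.0809). These neighbours were looked at after the Grem1 values were seen.

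The summed level of the fibroblast and pericyte markers differed between the groups as well. Of these 10 markers 5 rose (Dcn, Col1a1, Col1a2, Col3a1 and Lum), with sums of 463 to 605 CPM with the wildtype label and 737 to 1141 CPM with the knockout label. Pdgfra, Pdgfrb, Acta2, Cspg4 and Postn did not pass. Of 7 urothelial markers 2 rose, with overlapping sums of 38.0 to 55.3 and 46.1 to 60.7 CPM. Of 6 podocyte markers, a cell type known to express Bmp7, 2 fell, with overlapping sums of 483 to 642 and 395 to 514 CPM. The sums of the distal convoluted tubule, thick ascending limb and proximal tubule markers, given above, were lower with the knockout label without overlap. No marker of these lists was at 0 in all libraries, and their part in the Grem1, Bmp4 and Bmp7 differences was not tested.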

How the data were processed

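Per the labels' protocols, RNA of whole kidney was extracted with Trizol and made into libraries with a directional kit, while the files are named as counted without strand. The deposited values are raw read counts per Ensembl gene, 1 table per library, with no normalization by the authors. Per the submitters' processing notes, the tools were STAR, HTSeq and edgeR and the build was mm9. The sources used here give neither versions nor annotation. Of all records, 63.8% to 69.1% were assigned to genes; the counter's summary rows (no feature 13.0% to 16.8%, ambiguous 2.17% to 2.42%, not unique 15.3% to 18.0%) stayed out. No source says that the samples of a group came from separate animals, so p-values measure only the spread between these samples, which may be technical. Symbols came from a gene name table, which matched 32860 identifiers.

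Genes were filtered with filterByExpr, scaled by TMM and compared with edgeR 4.0.16 (R 4.3.3; robust quasi-likelihood test, two-sided, Benjamini-Hochberg over all genes tested); standard errors come from its F statistic. Log2 CPM used a prior count of 2. Other settings were DESeq2 1.42.0 or its size factors, limma 3.58.1 voom, library totals, other filters, a replicate block, a clock score (mean log2 CPM of 10 output minus 4 activator genes) and left-out libraries. The fits were tested on a single simulated data set. False calls exceeded the nominal share with edgeR, exceeded it further with DESeq2 and stayed below it with voom. Many of the smaller changes were missed by each. Fewer genes were changed there than were called in the data, so these shares need not hold for the data. Libraries of a group were distinct (chi-square per degree of freedom 9.49 to 25.3). The members and lists were chosen with earlier results of these data known. Named are the 9 members, up to 6 passing genes per pathway list, and 3 genes of alike pattern (mean log2 CPM of at least 1, no predicted models) per member past the threshold; others are named as chosen later or as list members that did not pass. A gene named by these rules is counted but not reported here.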

Additional observations from a re-analysis of the deposited data

Results flagged for a closer look

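In 76 groups of 4 values (members, called pathway genes, class sums and marker sums in each group), 7 had a library far from the other 3, measured as its gap to the nearest value divided by the whole range. About 1 group in 20 meets this by chance. Knockout 2 was highest for Sostdc1 (77.9 CPM, next 65.6, gap over range 0.953) and for the distal convoluted tubule marker sum (2039 CPM, next 1907, 0.848). Knockout 4 was lowest for Bmp2 (2.96 CPM, next 3.63, 0.915) and highest for the adrenal cortex marker sum (243 CPM, next 10.6, 0.996). Wildtype 3 was highest for the ratio of summed ligands to summed antagonists (0.789, next 0.592, 0.870) and lowest for the endothelial marker sum (424 CPM, next 557, 0.876). Wildtype 1 was highest for the urothelial marker sum (55.3 CPM, next 40.3, 0.864).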

How the results depend on the processing

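Of 153 fold changes of the 9 genes under other settings, 148 moved by less than 1 SD of the knockout libraries, and no gene past the threshold changed sign; of 238 values of called pathway genes, 58 were no longer past the threshold and none reversed. Without the low Grem1 library and the library with adrenal transcripts together (knockout 1 and 4), Grem1 had a log2 fold change of 5.22. With the clock score in the model, 1 of the 9 was called higher and 1 lower, 3 pathway genes rose and 3 fell, and 545 of all genes rose and 265 fell; the cause was not tested. Library totals as the only scaling gave 1658 rising and 508 falling genes and 4 falling pathway genes. Without knockout 1 and 4, 502 genes rose and 410 fell, and 3 pathway genes rose. Leaving out each library gave 588 to 977 rising and 488 to 963 falling genes, 4 to 7 rising and 4 to 7 falling pathway genes (4 falling without knockout 2 or 4, 5 without knockout 3 or wildtype 1), 2 to 3 of the 9 higher and 2 to 3 lower. A replicate block called 577 genes up and 517 down, with 3 of the 9 higher and 3 lower and 5 pathway genes rising and 6 falling. Deviations of same-numbered libraries from their group means correlated at r = -0.22, -0.21, -0.05 and 0.16 for numbers 1 to 4. These values do not show a pairing by number. They cannot exclude one, since no values for differently numbered libraries stand beside them. Depth limits Grem1 in wildtype (7 to 21 counts), Nog in knockout (1 to 8) and Bmp5.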
